A study of Caenorhabditis elegans with 2 samples.

Results

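The genes described here are 36 neuronal genes of Caenorhabditis elegans, listed by name for their part in making or releasing neurotransmitters or in fixing what kind of neuron a cell becomes. They are 36 of the 19985 protein-coding genes annotated on the nuclear and mitochondrial genome, and each was asked how many peaks of HLH-26 chromatin immunoprecipitation lie on it. HLH-26 is a basic helix-loop-helix protein of the worm REF-1 family. The animals were whole young adults of strain RW12174, harvested at 66 hours after synchronisation as starved first-stage larvae. They carried the insertion st12174, which fuses GFP to hlh-26 and brings a functional unc-119 copy between loxP sites, on the unc-119 deletion background tm4063. Both biological replicates are of this 1 group, the chromatin was pulled down with an antibody to GFP, and no second genotype or stage was compared. Whole animals hold all tissues, so the cells a peak came from were not measured.

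Fast transmission in worm neurons runs by the steps found in other animals. A transmitter is made by its enzyme and loaded into vesicles by its transporter, the vesicle docks and is primed beside a calcium channel, and the SNARE proteins fuse it with the membrane. Neuropeptides travel in dense core vesicles and are cut from precursors by their own enzymes. Homeodomain and related transcription factors, called terminal selectors, switch on these genes in each neuron class. Proteins of the REF-1 family are known in the worm mainly from Notch-dependent decisions in the embryo.

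A peak was counted for a gene when it overlapped the gene, or the 1000 bp upstream of its start, by at least 1 bp. Counts come from the main list, the authors' ranked list that compares the replicates with each other (35301 peaks, median width 524 bp), and are set beside those of the series' other ranked list (35468 peaks) and of the ranked lists of replicate 1 (19393) and replicate 2 (24293). Ranked lists hold weak peaks as well as strong ones. Signal is the authors' measure of enrichment, on a scale the deposited lists leave unnamed, and is comparable within a list only. The irreproducible discovery rate (IDR) says how poorly a peak's rank recurs between the lists compared: low is better. Peak lists hold no read counts, so the depth behind a peak is unknown. No test across samples is possible with 1 group, and all comparisons below are descriptions.

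The sequences under a few summits are printed as examples, and they are not those of the strongest peaks in order. Each is the summit base with 50 bases on either side, read from the RefSeq genome (WBcel235, the same assembly as ce11) on the plus strand. At syd-2 the summit is upstream of the gene (chrX:10555569-10555669), and no motif searched lies in the window. At unc-17 it is in a coding exon (chrIV:3618800-3618900), also with no motif. At unc-25 it is in a coding exon (chrIII:12948053-12948153), and the capitals mark an E-box, CACGTG, that starts at the summit base. At cat-1 it is in an intron (chrX:5707925-5708025), and the capitals mark an N-box, CACNAG, and the hexamer CACGCG, both read here on the minus strand. At unc-104 it is in an intron (chrII:7003040-7003140), and the capitals mark the 25 bases that belong to a tRNA gene.
syd-2: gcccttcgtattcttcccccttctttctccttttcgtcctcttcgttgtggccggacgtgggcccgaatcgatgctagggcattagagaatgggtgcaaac
unc-17: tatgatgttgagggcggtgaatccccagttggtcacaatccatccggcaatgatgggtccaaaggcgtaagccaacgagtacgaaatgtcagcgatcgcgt
unc-25: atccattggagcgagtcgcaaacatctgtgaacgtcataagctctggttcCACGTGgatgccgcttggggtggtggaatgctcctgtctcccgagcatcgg
cat-1: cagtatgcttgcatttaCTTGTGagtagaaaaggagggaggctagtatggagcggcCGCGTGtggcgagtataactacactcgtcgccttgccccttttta
unc-104: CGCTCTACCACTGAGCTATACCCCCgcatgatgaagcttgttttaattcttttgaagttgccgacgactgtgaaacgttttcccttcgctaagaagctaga

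None of the 36 genes carried a peak past the authors' threshold in any list. That is 0 of 36 (by 3 counts of the total a share of up to 8.33%, by the exact 95% limit up to 9.74%), where 0.555% of all protein-coding genes had one and genes of like length would give 0.312 genes. Nor did any of the 36 have a main list peak with a score of 540 or more, against 1.45% of all protein-coding genes (like-length genes would give 0.945 genes). So few genes were past either limit that 0 of 36 is near what the background gives. The strongest of their peaks had a signal of 69.6 and an IDR of 7.21%, and stood at rank 302 by signal. The nuclear peaks of the authors' conservative list had a median signal of 93.0 and a lowest of 12.4, so signal alone did not set the threshold.

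Weak peaks were common at these genes, about as common as at other genes of their length. In the main list 29 of the 36 genes had at least 1 ranked peak (80.6%, exact 95% interval 63.98 to 91.8%), against 61% of all protein-coding genes. The 36 genes are long, with a median of 5451 bp from first to last base against 2026 bp for all protein-coding genes, and a longer gene has more room for a peak. Like length here means a length within 10% of the member's own, with the members left out. Genes of like length had a peak in 75.7% of cases on average, which would give 27.2 of 36. In the other series list it was 28 genes against a background of 60.8% (77.8% and 75.8% at like length), in replicate 1 alone 25 genes against 45.8% (69.4% and 62.8%), and in replicate 2 alone 29 genes against 51.5% (80.6% and 69.0%). In all 4 lists the share lay slightly above that of like-length genes, by less than the width of its interval.

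The number of peaks gave the same picture. The 36 genes held 136 pairs of gene and peak in the main list, made of 133 distinct peaks because unc-17 and cha-1 share 3, and the mean numbers at like-length genes sum to 136.4. Their median density was 0.398 peaks per kb of gene and upstream window, against 0.339 over all protein-coding genes. Pooled over the summed windows, the order was reversed, at 0.394 per kb against 0.436. Pooled density was also lower in the other series list (0.411 against 0.436) and replicate 1 (0.220 against 0.245). In replicate 2 it was higher (0.322 against 0.298). The percentile of a gene's density among its like-length genes, where 50 is the middle, had a median of 57.1 over the 36 genes and ran from 11.5 at rab-3 to 96.0 at unc-10, with 21 of 36 above 50. In the replicates alone the median was 58.1 (replicate 1) and 54.8 (replicate 2). Peak signals were also ordinary, with a median of 26.6 and quartiles of 17.5 and 34.5 for the 133 peaks, against 26.03, 18.2 and 35.3 for the 30146 distinct peaks at all protein-coding genes.

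**Figure D1:**
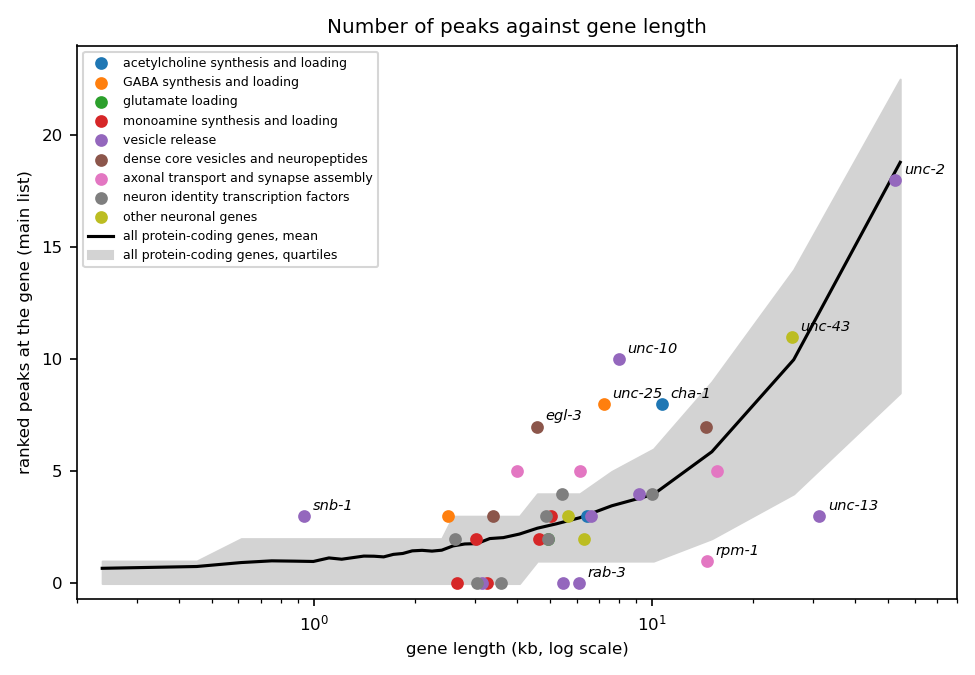
Number of ranked peaks at each of the 36 genes (points, coloured by role) against gene length in kb on a log axis, with the mean (line) and quartiles (band) of all protein-coding genes in length classes. Most points sit inside the band. Those outside it include unc-10, unc-25, egl-3, cha-1 and snb-1 above, and unc-13, rpm-1 and rab-3 below.

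Recurrence in the replicates' own ranked lists was partial. A peak is said here to recur in both replicates when it overlaps a ranked peak in each of those lists. One that does not recur in this sense still holds a signal in both compared lists, described below. Of the 133 peaks, 40 (30.1%) overlapped a ranked peak in each replicate's own list, against 32.1% of peaks at all protein-coding genes, and 24 overlapped one in neither. By gene, 16 of 36 had such a recurring peak (44.4%, 27.9 to 61.9%), where 25.7% of all protein-coding genes and 39.8% at like length did. The IDR was under 50% for 15 of the 133 peaks (11.3%), against 15.5% of peaks at all protein-coding genes, and for peaks at 10 of the 36 genes, where like-length genes would give 10.4. At 68 of the 133 peaks (51.1%, against 44.6% at all protein-coding genes) the IDR stood at 86.04%, the most common value in the list.

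The main list also gives each peak's signal in both lists that were compared. A signal given for a replicate is instead that of the strongest overlapping ranked peak (at least 1 bp) of its own list. A peak can hold both compared signals and still overlap no ranked peak of a replicate's own list. The first compared peak has the start and end of a peak in replicate 1's own ranked list for 54.0% of the list, and the second those of a peak in replicate 2's for 56.6%. Signal was higher in the first for 88 of the 133 peaks (66.2%), close to the 66.6% for peaks at all protein-coding genes. It differed by 1.5 times or more between them at 50 of the 133. Among the strongest, the top peaks of unc-104, unc-2 and unc-17/cha-1 were that much higher in the second list, and those of egl-3 and unc-25 and the second syd-2 peak in the first. The upstream syd-2 peak differed by less.

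**Figure D2:**
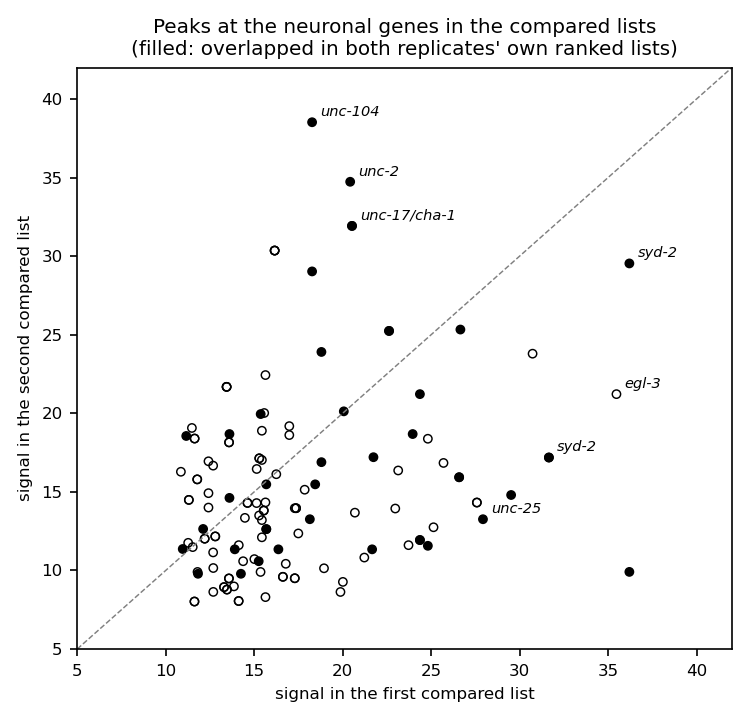
Signal of each of the 133 peaks in the second compared list (vertical) against the first (horizontal), with the line of equal values dashed; filled points overlap a ranked peak in both replicates' own lists. The upstream syd-2 peak, at 36.2 and 29.5, is high on both axes, while the unc-104 peak at 18.3 and 38.5 is high on 1.

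Axonal transport and synapse assembly held the strongest peak of all. Its 4 genes had 16 peaks (like-length means sum to 16.6), and 11 of the 16 recurred in both replicates' lists. The gene syd-2 encodes liprin-alpha, a scaffold of the presynaptic active zone. Its peak (X, 10555357 to 10555880) had its summit 380 bp upstream of the start. Its main list signal was 69.6, with 36.2 in replicate 1 and 29.5 in replicate 2, at ranks 792 and 1271 of those lists. A second syd-2 peak lay in a coding exon (X, 10552737 to 10553260) with a signal of 55.1, and 31.7 and 23.2 in the replicates' own lists. Its compared signals were 31.7 and 17.2. All 5 peaks of syd-2, which made 3 regions once overlapping peaks were merged, recurred in both replicates. The density of syd-2 was at percentile 77.3 of like-length genes (93.8 in replicate 1, 90.0 in replicate 2). Its strongest signal was above that of 96.9% of like-length genes, ties at their middle, with genes without a peak counted as lower. Of those like-length genes 76.7% had a peak.

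The kinesin gene unc-104, whose motor carries synaptic vesicle precursors, had 5 peaks, and the strongest 2 overlapped each other within an intron (II, 7002828 to 7003351, signal 54.3, and 7003050 to 7003573, signal 42.3). Signal there was 18.3 in replicate 1 and 38.5 in replicate 2, at ranks 10783 and 246, so the replicates placed the peak far apart. A pair of tRNA genes lies under these peaks (II, 7002993 to 7003064 on the minus strand and 7003273 to 7003344 on the plus strand), and the summit of the stronger was 26 bp before the 5′ end of the minus-strand one. The part of the tRNA genes in this signal was not tested. The gene unc-116 encodes the heavy chain of conventional kinesin. It had 5 peaks in 4011 bp, percentile 88.7 (94.2 and 82.3 in the replicates), the strongest with a main list signal of 37.6, and 18.4 and 18.6 in replicates 1 and 2. Merged, the 5 made 2 regions. The long gene rpm-1, for a ubiquitin ligase that shapes synapses, had 1 peak (signal 21.95) where like-length genes average 5.60, and stood at percentile 15.02. Replicate 1 had no peak at rpm-1, and replicate 2 and the other series list had 3 each.

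The acetylcholine locus came next. The gene unc-17 encodes the vesicular acetylcholine transporter and lies within cha-1, the gene of the enzyme that makes acetylcholine, with which it shares its first exon, so peaks of the shared stretch belong to both. The strongest (IV, 3618588 to 3619111) lay in a coding exon of unc-17 and in an intron of cha-1. Its main list signal was 57.9, against 26.8 in replicate 1's own list and 31.9 in that of replicate 2, with an IDR of 39.3%. The compared signals were 20.5 and 31.9. Another shared peak (IV, 3623169 to 3623692, signal 45.2) overlapped a ranked peak of replicate 1 (25.7) and none of replicate 2. In all cha-1 had 8 peaks, percentile 84.8, and unc-17 had 3 of them, percentile 55.7. With overlapping peaks merged, cha-1 had 5 regions and unc-17 had 2. In the other series list cha-1 had 5 peaks (percentile 63.4) and unc-17 had 3 (52.7). The 2 genes together held 11 pairs in the main list, against a like-length sum of 7.09. The pairs come from 8 distinct peaks, because shared peaks count for both genes, while the like-length sum takes the genes as separate.

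GABA genes were dense in main list peaks, many of which overlapped each other. The gene unc-25 encodes glutamic acid decarboxylase, which makes GABA, and unc-47 encodes the vesicular GABA transporter. Together they held 11 peaks, against 4.88 from like-length means, and 5 of these recurred in both replicates. Merging overlapping peaks left 4 regions at unc-25 and 1 at unc-47. Like-length means by gene were not computed for merged regions. The 8 peaks at unc-25 put it at percentile 93.1 (59.1 in replicate 1, where it had 2 peaks, and 84.8 in replicate 2, with 5). Its strongest peak (III, 12947841 to 12948364) is the one with the E-box printed above, and had a main list signal of 48.2. The strongest overlapping peak had 27.9 in replicate 1's own list and 25.1 in that of replicate 2. The compared signals, however, were 27.9 and 13.3. At unc-47 all 3 peaks recurred, with no summit in the transcribed body: the summits stood at -83, -418 and -741 bp from the start. The nearest (III, 10186081 to 10186604) had a main list signal of 42.6 and 20.1 in both replicates' lists, and the gene stood at percentile 79.96 (92.0 and 89.5 in the replicates). The GABA neuron selector unc-30 is described with the transcription factors.

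The glutamate and monoamine genes were less covered. At eat-4, the vesicular glutamate transporter gene, there were 2 overlapping peaks (signals 38.2 and 27.5), with 3 ranked peaks in replicate 2 and none in replicate 1. The 5 monoamine genes held 7 peaks, against 10.5 from like-length means, and 3 of the 5 had a peak. The vesicular monoamine transporter gene cat-1 had 3, the strongest (X, 5707713 to 5708236) with a signal of 42.6 and an IDR of 21.3%. It overlapped a ranked peak of 30.7 in replicate 1's own list and none in that of replicate 2. Its compared signals were 30.7 and 23.8. Its summit lay 53 bp before a tRNA gene (X, 5708028 to 5708109), and the other 2 cat-1 peaks lay over a second tRNA gene (X, 5709375 to 5709456). The genes of tyrosine decarboxylase, tdc-1, and tyramine beta-hydroxylase, tbh-1, which act in turn to make octopamine, had 2 peaks each. The stronger one of tdc-1 had a main list signal of 35.98, with 22.6 in replicate 1's list and 25.2 in that of replicate 2. That of tbh-1 had 38.3, with 21.7 and 17.2 in the replicates. There was no peak in any list at tph-1, the tryptophan hydroxylase gene of serotonin neurons. At cat-2, the tyrosine hydroxylase gene of dopamine neurons, only replicate 1 (2 peaks) and the other series list (2 peaks) had any.

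**Figure D3:**
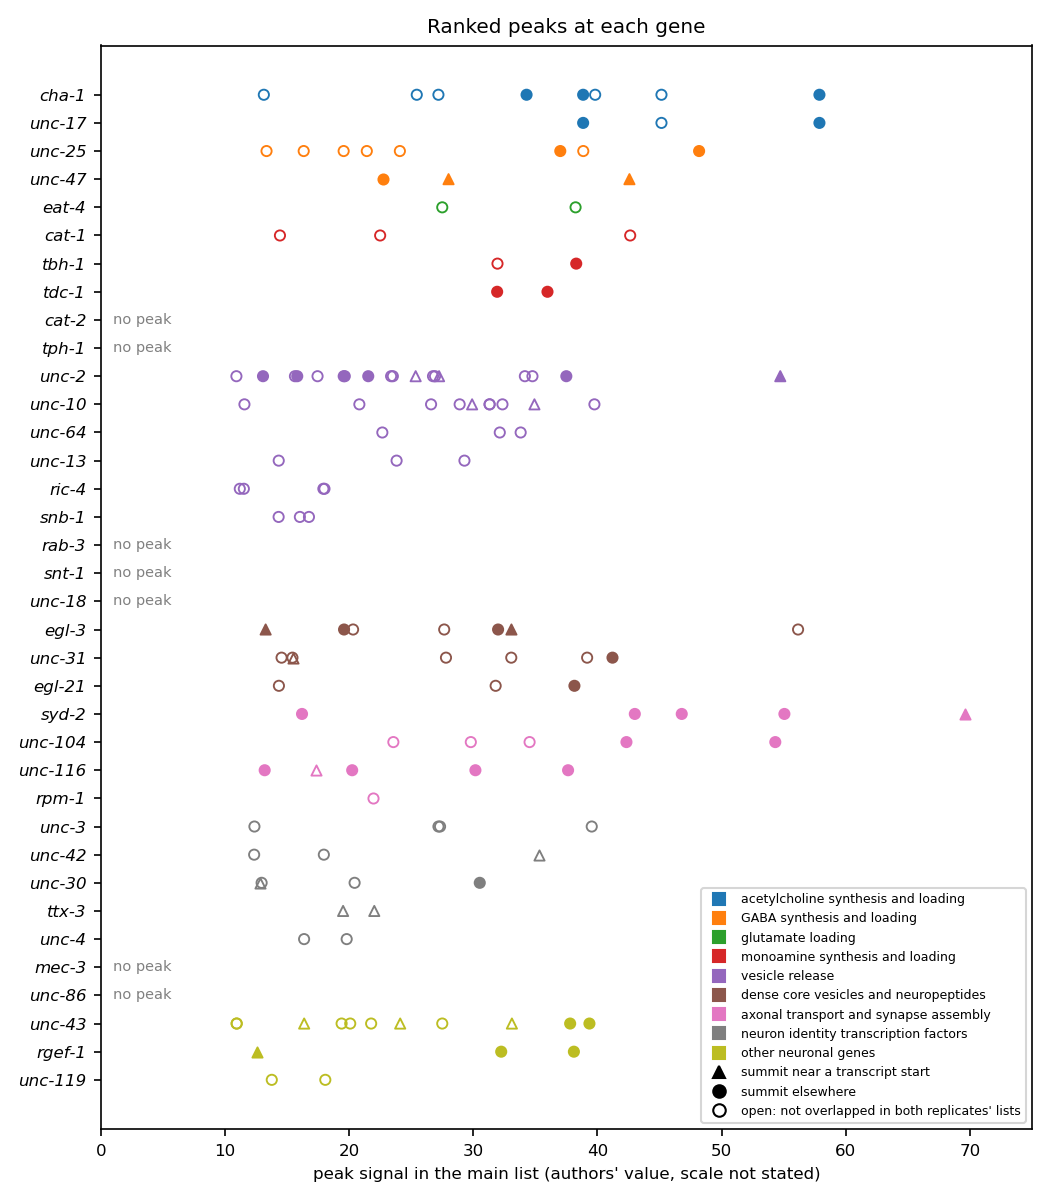
Signal of every main list peak (horizontal, authors' value) at each of the 36 genes, grouped and coloured by role. Triangles have the summit near a transcript start, and filled symbols overlap a ranked peak in both replicates' lists. The strongest point, at 69.6, is the upstream peak of syd-2, and 7 genes have no peak.

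Genes of the release machinery held the highest percentile of the list and also the lowest, at a gene with no peak. The 9 genes held 41 peaks, against 52.2 from like-length means, with 6 of 9 having a peak and 6 of the 41 peaks recurring in both replicates, all of them at unc-2. The calcium channel gene unc-2 is the longest member (52607 bp) and had 18 peaks, where the 5 genes of like length had a median of 17. Its strongest (X, 2731477 to 2732000) lay near an internal transcript start, with a main list signal of 54.7, and 20.9 and 34.7 in replicates 1 and 2. The active zone gene unc-10, which encodes the RIM protein, had the highest percentile of the 36, 96.0, with 10 peaks in 8006 bp. Those 10 made 4 regions once overlapping peaks were merged. Replicate 2 had 9 peaks there and replicate 1 had 3 (percentiles 97.9 and 70.6), and none of the 10 recurred in both. Its strongest peak (X, 7276974 to 7277497) had a signal of 39.8 in the main list and 25.1 in replicate 1, and overlapped no ranked peak of replicate 2. Of the SNARE genes, unc-64 (syntaxin) had 3 peaks and ric-4 had 4. None of the ric-4 peaks, which had signals from 11.2 to 18.01, overlapped a ranked peak of either replicate. The other series list had none at ric-4 either (percentile 9.56, against 60.7 in the main list). The short gene snb-1, for synaptobrevin, had 3 weak peaks (signals of 14.3, 16.03 and 16.8), or 2 regions once merged. Its percentile was 89.8, with 1 ranked peak in replicate 1 and none in replicate 2.

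Low percentiles were found in the same group. A gene with no peak stands at the middle of its tie with the like-length genes that have none. The order among the 7 members with no main list peak therefore reflects only how many of those genes had one. Neither rab-3, a GTPase gene of synaptic vesicles, nor snt-1, the gene of the calcium sensor synaptotagmin, had a peak in any of the 4 lists, and like-length genes of both had a median of 2 peaks in the main list. The priming factor gene unc-13, which spans 31332 bp, had 3 peaks where 40 like-length genes had a median of 12 (percentile 12.5). Replicate 1 had 6 there, replicate 2 had 2 and the other series list none (percentile 1.25). At unc-18, whose protein binds syntaxin, the main list had none, the other series list 5, replicate 2 had 2 and replicate 1 none, so its percentile went with the list used (16.2 in the main list, 92.3 in the other).

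The 3 genes of dense core vesicles and neuropeptides all had peaks in all 4 lists. They held 17 peaks, against 10.01 from like-length means, and 6 recurred in both replicates. The proprotein convertase gene egl-3, which cuts neuropeptide precursors, had 7 peaks in 4577 bp, or 3 regions once overlapping peaks were merged. The percentile of egl-3 was 95.6 (93.0 and 79.6 in the replicates). The strongest egl-3 peak (V, 10169082 to 10169605) lay at the 3′ end, in an untranslated exon, with a main list signal of 56.2. It overlapped a ranked peak in replicate 1's own list (35.5) and none in that of replicate 2. Its compared signals were 35.5 and 21.2. The carboxypeptidase gene egl-21, which trims the cut peptides, had 3 peaks in the main list and 8 in replicate 2, with 1 in replicate 1. The gene unc-31, needed for release of dense core vesicles, had 7 peaks, the strongest in an intron (IV, 12780975 to 12781498) with a signal of 41.2, and 26.7 and 25.3 in the replicates. Of the other unc-31 peaks, 3 lay within 200 bp of the snRNA gene ZK897.3.

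Neuron identity genes had about as many peaks as their lengths give. Of the 7 transcription factor genes, 5 had a peak, with 15 peaks in all against 17.3 from like-length means, a median percentile of 57.6 and a median signal of 19.8. In the other series list unc-3 had 7 peaks, where the main list had 4, unc-4 had 4 where it had 2, and ttx-3 had none. Only 1 of the 15 recurred in both replicates, in a coding exon of unc-30 (IV, 13121457 to 13121980), with a main list signal of 30.5, and 15.3 and 10.6 in replicates 1 and 2. The homeodomain gene unc-30 sets GABA motor neuron fate. The strongest peak of the group lay in an intron of unc-3, the selector of cholinergic motor neurons, with a signal of 39.5. It overlapped a ranked peak in replicate 1's own list (23.1) and none in that of replicate 2. Its compared signals were 23.1 and 16.4. At unc-42, a homeodomain gene of command interneurons, the strongest peak (signal 35.3) was near an internal start. It overlapped no ranked peak in either replicate's own list, with compared signals of 23.0 and 13.9. The LIM homeodomain gene ttx-3, which sets AIY interneuron fate, had 2 overlapping peaks at its start, with summits at -31 and -288 bp and signals of 22.03 and 19.5. Both overlapped a ranked peak of replicate 2 and none of replicate 1, and the percentile was 46.7 in the main list and 12.9 in the other series list. The homeodomain gene unc-4, which sets the synaptic inputs of a motor neuron class, had 2 peaks (19.8 and 16.4). The POU homeodomain gene unc-86 had no peak in any list. Its partner in touch neurons, mec-3, had none in the main list, 1 in the other, 2 in replicate 1 and 1 in replicate 2.

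The remaining 3 genes are used as broad neuronal genes. The calmodulin-dependent kinase gene unc-43 had 11 peaks (percentile 57.1), the strongest at 39.4, with 18.8 in replicate 1 and 23.9 in replicate 2. All 3 peaks at rgef-1, a nucleotide exchange factor gene expressed across neurons, recurred in both replicates, and merging them left 1 region. The strongest lay in a coding exon 136 bp past the start (signal 38.1, and 24.0 and 18.7 in the replicates' own lists). Its compared signals were 13.6 and 18.7. The gene unc-119 is disrupted in these animals and supplied by the marker copy beside the tag. Its reference position had 2 overlapping intron peaks in the main list, with signals of 18.1 and 13.8. Replicate 2 had 2 peaks there (up to 16.7), and replicate 1 and the other series list had none. At hlh-26 itself no main list peak lay within 2000 bp.

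**Figure D4:**
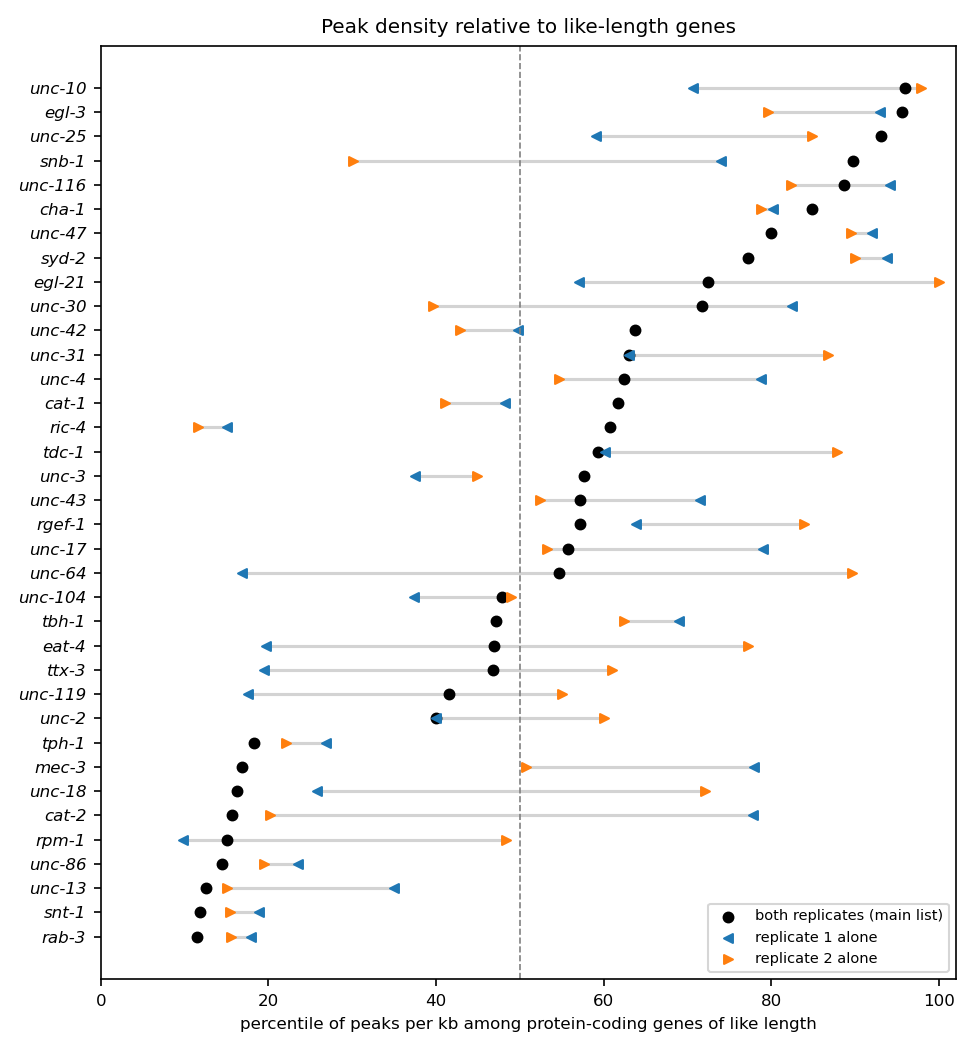
Percentile of each gene's peaks per kb among protein-coding genes of like length (50, dashed, is the middle), in the main list (black) and in replicate 1 and replicate 2 alone (blue and orange triangles, joined by a line). The genes unc-116, cha-1, unc-47 and syd-2 stand high in all 3 lists and rab-3, snt-1 and unc-86 low in all 3, while unc-64 and cat-2 are far apart in the replicates.

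Summits were then placed by gene feature. Those of 20 of the 136 pairs (14.7%, exact 95% interval 9.22 to 21.8%) were near a transcript start, from 500 bp before it to 100 bp past it, against 14.7% over other protein-coding genes. Of these 20, at 12 genes, 9 were near the gene's own 5′ end, at syd-2, unc-47, unc-10, ttx-3, rgef-1 and unc-116, and the other 11 were near internal starts only. Introns held 65 of the 136 summits (47.8%, 39.2 to 56.5%), against 32.0% at like-length genes and 27.5% at all other protein-coding genes. Like-length genes are pooled in this paragraph with each counted once, so lengths are not matched member by member. In the other series list introns held 36.6% (27.5% at other protein-coding genes). In replicates 1 and 2 they held 36.8% and 38.7% (26.2% and 27.8% at other protein-coding genes). Introns make up 54.6% of the sequence of these genes and their windows, and 44.1% of that of like-length genes. Per kb of intron there were 0.345 summits, against 0.303 at like-length genes, and per kb of coding exon 0.502 against 0.543. Near starts it was 0.453 per kb against 0.373. In untranslated exons it was 0.235 per kb from 4 summits, against 0.345.

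**Figure D5:**
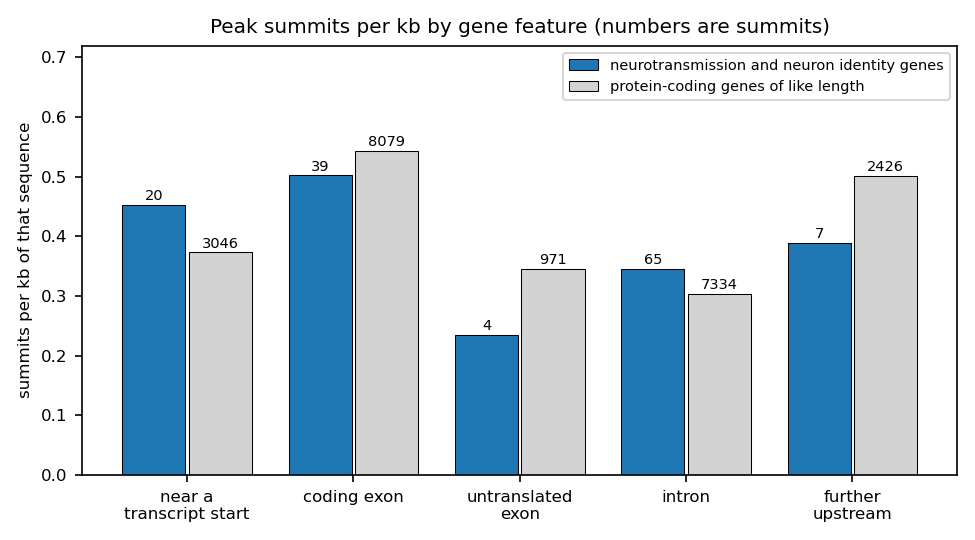
Peak summits per kb of each kind of sequence in the 36 genes (blue) and in protein-coding genes of like length, each counted once (grey), with the number of summits above each bar. Both sets have more summits per kb in coding exons than in introns, and the blue bars of untranslated exons and further upstream rest on 4 and 7 summits.

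The motifs searched were about as frequent under these summits as under other peaks. Within 50 bp of the summit, on either strand, the N-box CACNAG was found under 18 of 133 peaks (13.5%, 8.22 to 20.5%), against 13.5% of 30013 peaks at other protein-coding genes. The hexamer CACGCG was under 3 (2.26% against 1.89%), at cat-1 and rgef-1. These motifs can overlap each other only in part. The E-box CACGTG was under 2 (1.504% against 2.53%), at unc-25 and unc-116, and CAGCTG under 4 (3.01% against 2.86%). The windows had a median GC content of 42.6%, against 41.6% at other protein-coding genes. Summits inside another protein-coding gene that is no member numbered 1 of 133, at eat-4, and 8 of the 133 peaks lay within 200 bp of a tRNA or snRNA gene, at unc-104, cat-1 and unc-31.

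By chromosome, members were sparsest in peaks on I and II. Densities here are pooled over the summed windows of a set, not medians. Of the 7 members on II, 3 had a peak. The 7 held 0.197 peaks per kb, against 0.462 for all protein-coding genes of that chromosome. Members on X had a peak in 7 of 8 cases, at 0.429 per kb against 0.524. On III and IV 6 of 7 had one, at 0.545 and 0.470 per kb against 0.416 and 0.375. On V all 6 did, at 0.459 against 0.451, and on I the single member, unc-13, had 0.0928 per kb against 0.387. Genes differ in length between these sets, and the chromosomes were not compared by a test.

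Other genes of the neuron were described by the same rule. Of 199 receptor, neuropeptide, channel, synapse, signalling, guidance and transcription factor genes listed by name, 197 were found, and 154 of these had a ranked peak in the main list (78.2%, against 61% of all protein-coding genes), close to the 80.6% of the 36 genes. Their median percentile among like-length genes was 56.3. Shares with a peak at like length were not computed for these groups, and a longer gene has more room for a peak. The median percentile, which allows for length, was highest for monoamine receptors and uptake (69.5). All 16 axon guidance genes had a peak (median percentile 65.7), led in signal by unc-44 (56.2), the ankyrin gene of axons, with 27 peaks. Synapse and vesicle cycle genes had one in 21 of 23 cases, signalling genes in 10 of 12, neuropeptide genes in 27 of 33, other neuronal transcription factors in 19 of 23 and monoamine receptors and uptake in 16 of 20. Ion channels had one in 19 of 26, GABA and glutamate receptors in 16 of 25 and acetylcholine receptors and related genes in 10 of 19, with the lowest median percentile of the 9 groups, 31.3.

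A thresholded peak was found at 1 of the 197, unc-41, which encodes the stonin of synaptic vesicle recycling. It lay in an intron (V, 9970130 to 9970653) with a signal of 87.1, and 41.6 and 38.5 in the replicates, and within 200 bp of it lies the short RNA gene C27H6.5. The gene egl-30, for the G protein alpha subunit of the q class, had the next highest of the group leaders (signal 75.7, IDR 2.37%, 31.0 in replicate 1 and 47.4 in replicate 2), with 11 peaks of which 10 recurred. The other leaders were zag-1 (67.0), nlp-12 (66.0, with the summit 92 bp upstream of the start), trp-4 (62.98), gab-1 (53.9), ace-2 (52.6) and dop-4 (52.0).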

How the data were processed

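Per the labels, both samples are chromatin immunoprecipitation libraries of whole young adults, sonicated and mapped to ce11. The authors deposited 8 peak lists, 4 ranked and 4 thresholded, in which the signal is the peak caller's enrichment value, the score is a rescaled IDR (at most 1000), and a further column gives the IDR itself on a −log10 scale. The labels name no peak caller or version and do not say which control entered the calls. The main list is the series' ranked list that holds all 90 lines of the conservative thresholded list. The first and second compared signals are the deposited columns of that list, matched to the replicates only by their coordinates.

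Annotation was Ensembl release 115 and bases were read from RefSeq, both of WBcel235, and all peaks end within its chromosome lengths. Peaks, which are 1-based here, were counted per gene. Like-length genes are all protein-coding genes within 10%, none drawn at random. Shares have exact (Clopper-Pearson) 95% intervals, which cover counting error over peaks or genes only. The 36 genes, the roles and the other neuronal lists were chosen with earlier results of these data known. Genes described in full are those with a recurring peak among the 12 strongest, those of the 5 highest and 5 lowest percentiles, those with no peak, and unc-119; values of the other members are given by role, and the short RNA genes and rgef-1, unc-31, cat-1 details were chosen after their values were seen. Overlapping peaks each count, so neighbouring peaks are not independent. The counting was tested on simulated peaks. Python 3.11.15, numpy 2.4.6, pandas 2.3.3, scipy 1.17.1 and matplotlib 3.10.9 were used.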

Additional observations from a re-analysis of the deposited data

How the results depend on the processing

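The number of the 36 genes with a peak was 25 to 30 under 10 of the 11 alternatives, and 0 with a score of 540 or more, which also leaves 0 peaks and a median density of 0 and no percentile or start share to compute. Taking each replicate's list alone gave 76 to 111 peaks, 25 to 29 genes, 0.235 to 0.275 peaks per kb, a median percentile of 54.8 to 58.1 and a start share of 15.8 to 17.1%. Merging overlapping peaks left 76 pairs, 0.254 per kb (0.222 for all protein-coding genes) and a percentile of 54.6. The other series list gave 0.452 per kb and a percentile of 60.3. Windows with 0 bp upstream gave 0.427 per kb and those of 2000 bp a percentile of 54.3. Counting per kb of summed exons raised the median percentile to 66.6, and like-length genes of the same chromosome, added after seeing the data and without unc-2, which has none, gave 52.2. With a start window of 250 and 50 bp the start share was 8.82%. This window is narrower, and the share over other protein-coding genes was not computed for it. The remaining values moved by less than the spread between the replicates, their interval or 1.5 times, also without peaks near short RNA genes, an alternative added after seeing the data. The cause of these differences was not tested. The median percentile was above 50 in all 13 alternatives that gave one. Few genes are as long as unc-2 (5 of like length), unc-13 (40) and unc-43 (63), so their percentiles are coarse. Peak lists hold no depth, so a gene without a peak is one without a ranked peak, not one without binding. No paired analysis was possible because the samples form 1 group.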
